A study of Homo sapiens with 12 samples.

Results

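The regions described are the 4884 peaks of a G-quadruplex pull-down from HEK 293T genomic DNA whose centre lay inside a very long locus, taken as an autosomal gene locus of at least 500 kb. They were 10.1% of the 48428 autosomal peaks and were drawn from 51446 peaks in all. Members were chosen by position only, so their number, score, placement and the expression of the surrounding genes were not used in the choice. A locus here is the interval that the deposited expression tables give for a gene or a chain of overlapping genes. The 419 long loci ran from 500514 to 2489413 bases with a median of 672455 bases, covered 333.9 Mb and held 2961 gene entries, with a median of 6 per locus. Each locus is named below by its longest gene.

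The study pulled down annealed genomic DNA of HEK 293T, a human embryonic kidney line transformed by adenovirus DNA and carrying SV40 large T antigen, with a small molecule that binds G-quadruplexes. The pull-down had 2 libraries, set against 2 input libraries, and the deposited peak list merges them. For RNA-seq, cells of the same line received 1 µM of PDP for 3 h, 24 h or 72 h, and the control cells received DMSO for 3 h, with 2 libraries in each of these groups. The labels name no genetic change in any group and do not say whether the 2 libraries of a group came from separate cultures. The control column of the 24 h and 72 h tables was the 3 h DMSO control on another scale. The 3 comparisons therefore share their control, and at 24 h and 72 h the effect of PDP and the longer time in culture cannot be told apart.

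A G-quadruplex is a DNA fold in which stretches of guanines pair into stacked planar tetrads held by a central cation. It needs several short runs of guanines close together, so G-rich or, on the other strand, C-rich stretches are where it can form. Very long genes are mostly intron. Many encode adhesion molecules, ion channels and signalling scaffolds of neurons, and several span common fragile sites, stretches where chromosomes tend to break when replication is slowed.

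Sequence could be shown only where a peak reached into the RefSeq promoter window of a gene (250 bases before to 50 after the start, GRCh38.p14). Of 1680 such windows inside long loci, 14 overlapped a member peak, which is 0.833% (95% exact binomial interval 0.456 to 1.39), beside 172 of 31878 other autosomal windows, or 0.540%. The windows of 12 genes were involved. The genes left out below had at most 2 runs of 3 or more G and at most 2 of C in their stretch. RFX4 among them had no upstream base under its peak. The 6 sequences below, the richest in such runs, are the bases upstream of the start that lay under the peak. They are written 5′ to 3′ on the strand of the gene with runs of 3 or more G or C in capitals. They are a G-run repeat inside the SLIT3 locus (chr5:169079634-169079883, plus strand), the upstream bases of NFIA (chr1:61082452-61082560, plus), TGFB3 in the TTLL5 locus (chr14:75981996-75982144, minus), FBN2 (chr5:128538355-128538495, minus), an uncharacterised RefSeq gene in the NFIA locus (chr1:60924696-60924830, minus) and CNTNAP4 (chr16:76277230-76277400, plus).
LOC105377712: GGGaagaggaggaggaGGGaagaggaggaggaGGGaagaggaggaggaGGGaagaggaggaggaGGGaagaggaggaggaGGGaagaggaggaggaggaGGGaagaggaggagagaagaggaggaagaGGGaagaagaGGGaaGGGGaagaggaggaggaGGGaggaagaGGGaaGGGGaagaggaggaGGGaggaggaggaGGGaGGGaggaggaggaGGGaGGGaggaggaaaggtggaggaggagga
NFIA: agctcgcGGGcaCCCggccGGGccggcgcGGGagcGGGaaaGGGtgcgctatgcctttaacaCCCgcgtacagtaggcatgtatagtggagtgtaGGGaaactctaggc
TGFB3: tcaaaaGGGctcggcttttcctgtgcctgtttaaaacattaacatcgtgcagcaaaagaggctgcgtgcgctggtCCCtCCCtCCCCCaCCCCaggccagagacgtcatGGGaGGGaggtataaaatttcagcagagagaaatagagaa
FBN2: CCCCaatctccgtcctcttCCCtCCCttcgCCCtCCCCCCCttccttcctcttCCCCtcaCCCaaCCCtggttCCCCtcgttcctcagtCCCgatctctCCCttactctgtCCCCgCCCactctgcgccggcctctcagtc
LOC105378764: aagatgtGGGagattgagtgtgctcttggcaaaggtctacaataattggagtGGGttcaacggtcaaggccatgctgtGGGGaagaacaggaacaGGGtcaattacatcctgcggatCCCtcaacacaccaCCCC
CNTNAP4: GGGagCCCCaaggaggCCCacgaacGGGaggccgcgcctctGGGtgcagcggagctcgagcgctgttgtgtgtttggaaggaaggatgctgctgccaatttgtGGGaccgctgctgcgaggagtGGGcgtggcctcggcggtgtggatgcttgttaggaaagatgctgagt
The peaks ran beyond the bases shown, so the runs counted are those of the shown stretch and the score is that of the whole peak. The stretch in the SLIT3 locus, a gene for a secreted guidance ligand, held 18 G runs and no C run, and its peak scored 24.05. The FBN2 stretch, upstream of the gene for the microfibril protein fibrillin-2, had the opposite lean, with 13 C runs and no G run, and its peak scored 8.65. NFIA, which encodes a transcription factor of the nuclear factor I family, had 6 G runs and 2 C runs under a peak of score 15.85. TGFB3, a secreted growth factor, had 4 C runs and 3 G runs under a peak of score 16.35. The 135 bases shown of the other peak in the NFIA locus, of score 26.4, held 4 G runs and 2 C runs. The 171 bases shown for CNTNAP4, a contactin-associated adhesion protein, held 5 G runs and 2 C runs, and its peak scored 10.6.

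A commonly used motif for such a fold is 4 runs of GGG with 1 to 7 bases between them, searched on both strands. The bases shown for NFIA, TGFB3 and FBN2 hold it and the other 3 do not. None of the stretches left out holds it. The SLIT3 repeat holds it once up to 12 bases are allowed between runs. Within long loci, 4 of the 14 windows under a peak held the motif (28.6%, 8.39 to 58.1), beside 17.2% of the 1666 windows without a peak. Of the other autosomal windows 32.6% of the 172 under a peak held it, and over all 33558 autosomal windows the share was 24.8%. Windows in long loci were poorer in G and C, with a median of 48.3% beside 59% in other windows. With 14 windows the intervals overlap at this setting. With up to 12 bases between runs, a setting chosen after seeing the data, 8 of the 14 windows held the motif (57.1%, 28.9 to 82.3). The share was 25.8% (23.7 to 28.0) of those without a peak. These intervals take windows as independent, which they are not. LOC105377712 and CSMD2 each entered with overlapping or neighbouring windows under 1 peak, and all of these held the motif at that setting. No difference is therefore read from the intervals. In other autosomal windows the shares at that setting were 48.8% under a peak and 38.2% without. The windows under a peak in long loci had a median of 57.2% G and C, beside 48% in those without a peak, and its part in the difference was not tested. The share of windows under a peak was also not detectably different between long loci and elsewhere.

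Peaks were sparser in the long loci than elsewhere (the plot of density by locus length). Long loci held 14.6 peaks per Mb (14.22 to 15.04, 95% exact Poisson), loci of 100 to 500 kb held 19.2, loci of 10 to 100 kb held 20.3, loci under 10 kb held 18.7, and bases in no locus held 15.8. Against all other loci the ratio was 0.748 (0.726 to 0.772, exact binomial, two-sided p = 1.9e-80). Against all other autosomal bases it was 0.830 (0.806 to 0.855, exact binomial p = 1.7e-36) and against bases in no locus it was 0.926 (0.897 to 0.955). These intervals and tests cover counting error only. Peaks come from 1 merged list and are not replicates, and the counts per long locus varied 6.43 times as much as counting error alone gives, so the intervals are too narrow. Assembly gaps were not removed, which lowers the density of bases in no locus.

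**Figure D1:**
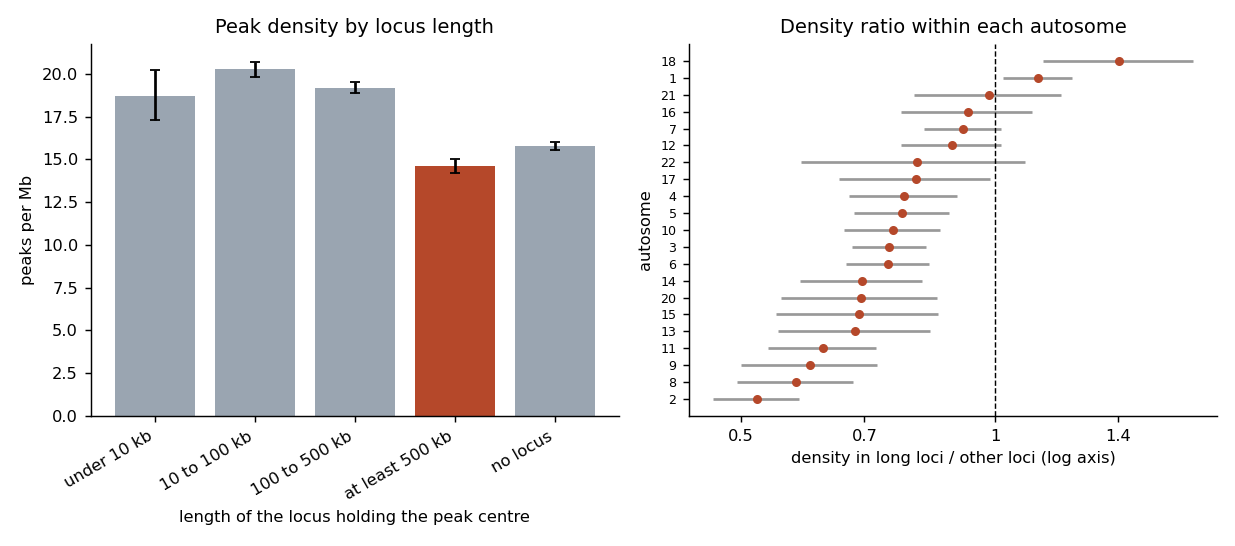
Left, peaks per Mb by the length of the locus that holds the peak centre, with 95% exact Poisson intervals. Right, the density in long loci over that in other loci of the same autosome, on a log axis with 95% exact binomial intervals. Long loci stand at 14.6 per Mb, and 19 of 21 autosomes lie below a ratio of 1.

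The same order held on most chromosomes. Of the 21 autosomes with a long locus (chromosome 19 has none), 19 had a ratio below 1, with the interval below 1 in 14 of them. Chromosome 2 was lowest, with 9.62 peaks per Mb in its 42 long loci and 18.4 in its other loci (ratio 0.522, 0.463 to 0.586). Chromosome 18 went the other way, with 17.0 in 10 long loci and 12.1 in other loci (1.404, 1.14 to 1.72), and so did chromosome 1 (24.7 and 21.97, ratio 1.12, 1.02 to 1.24). Had every long locus held the density of the other loci of its autosome, 6349 peaks would have been counted, so the observed 4884 were 0.769 of that number. On chromosome 18 the long loci were of both kinds. FHOD3, a formin that assembles actin, had 47.1 peaks per Mb, CCDC178 had 37.9 and CHST9, a sulfotransferase, had 32.6. In contrast SLC14A2, a urea transporter, had 1.85, PTPRM, an adhesive receptor phosphatase, had 3.57, and DCC, a netrin receptor, had 4.07.

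The peak score, the value the authors' peak caller deposited for each peak, was lower in long loci mainly at its upper end. Its median was 10.65 in long loci, the same as in loci of 100 to 500 kb, beside 10.87 in all other loci and 11.11 in no locus. The upper 10% of autosomal peaks, those scoring 19.55 or more, made up 7.002% (6.30 to 7.75) of the peaks in long loci, 9.79% (9.41 to 10.2) in other loci and 11.2% in no locus. The highest member scored 61.4 and ranked 40 among autosomal peaks, and the highest peak elsewhere scored 1538. The median score was lower in long than in other loci on 14 autosomes and higher on 7. The 3 members nearest the median, all at 10.65, lay in RGS7 (a regulator of G-protein signalling), PRKG1 (a cGMP-dependent kinase) and SHANK2 (a postsynaptic scaffold).

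Of the strongest members, PTPRN2 held more than any other locus. Coordinates here are on the build of the peak list, GRCh38.p7, and exons and introns were not resolved. PTPRN2, a phosphatase-like protein of secretory granules whose locus lies 0.717 Mb from the end of chromosome 7, held 5 of the 10 highest scores. Its top peak, chr7:157771815-157772333, scored 61.4 and lay 270.0 kb from the nearest RefSeq gene start. CACNA1B, the pore of a neuronal calcium channel, held the next, chr9:137900650-137901298, with a score of 58.85. GRIK1, a kainate receptor subunit, held chr21:29213613-29214130 with 53.95. RPS6KA2, a ribosomal S6 kinase, held chr6:166415974-166416376 with 53, within 3.29 kb of a gene start. The fifth was again in PTPRN2, chr7:158128928-158129367, with 52.9. Among the 501 highest autosomal peaks, 36 were members, spread over 23 loci, with 8 in PTPRN2, 3 in GSE1, a chromatin-associated protein, and 1 each in 17 loci.

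Long loci differed widely in density. It ran from 0 to 63.6 peaks per Mb with quartiles of 7.16, 11.96 and 20.7. The interval lay below the overall density in 81 loci and above it in 67. SORCS2, a neuronal sorting receptor, was densest with 35 peaks in 550.3 kb (63.6 per Mb, 44.3 to 88.5). PTPRN2 followed with 62.0 (47.8 to 79.0), KSR2, a scaffold of the Ras kinase cascade, with 52.3 (34.5 to 76.1), DPP6, an auxiliary subunit of potassium channels, with 48.7, SLIT3 with 47.9 and FHOD3 with 47.1. The intervals of these 6 overlap, so their order is not resolved.

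At the other end 3 loci held no peak: RALYL, an RNA-binding protein (739.1 kb), UNC13C, a synaptic vesicle priming factor (620.5 kb), and UNC5D, a netrin receptor (561.1 kb). The upper limits were 4.99, 5.94 and 6.57 peaks per Mb, all below the overall density. A further 18 loci held 1 peak. Among them were FGF14, a modulator of sodium channels (1.05 per Mb, 0.0267 to 5.87), SMYD3, a lysine methyltransferase (1.32, 0.0334 to 7.35), and FAM155A, a subunit of a sodium leak channel (1.42, 0.0360 to 7.92). The absence of a called peak does not show absence of the fold, since the depth behind the peak list is unknown.

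Among the longest loci, 14 of the 15 longest are given here and showed the same spread (the plot of peaks along them). The most peaks were in CNTNAP2, an adhesion protein of the axon, with 70 (30.4 per Mb, 23.7 to 38.4). The next by number were DAB1, an adaptor of reelin signalling, with 66, PTPRN2 with 65, PARK2, the ubiquitin ligase parkin, with 60 (30.3 per Mb) and RBFOX1, a splicing regulator, with 57 (23.04 per Mb). NRXN3, a presynaptic adhesion receptor, held 19 (11.2 per Mb). PTPRD, a synaptic receptor phosphatase, EYS, a photoreceptor matrix protein, and CSMD1, a complement regulator, held 9 each, at 3.92, 4.34 and 4.37 per Mb. LRP1B, a lipoprotein receptor, held 5 in 1906 kb (2.62, 0.852 to 6.12). Between these stood MACROD2, an ADP-ribose hydrolase (18 peaks, 8.17 per Mb), ROBO2, a SLIT receptor (17, 9.75), PCDH15, a protocadherin of hair cells (18, 9.86), CTNNA3, an alpha-catenin (19, 10.7), DLG2, a postsynaptic scaffold (27, 12.4), and TBC1D5, a regulator of endosomal traffic (22, 12.5). The intervals of CNTNAP2 and PARK2 do not overlap those of PTPRD, LRP1B or TBC1D5.

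**Figure D2:**
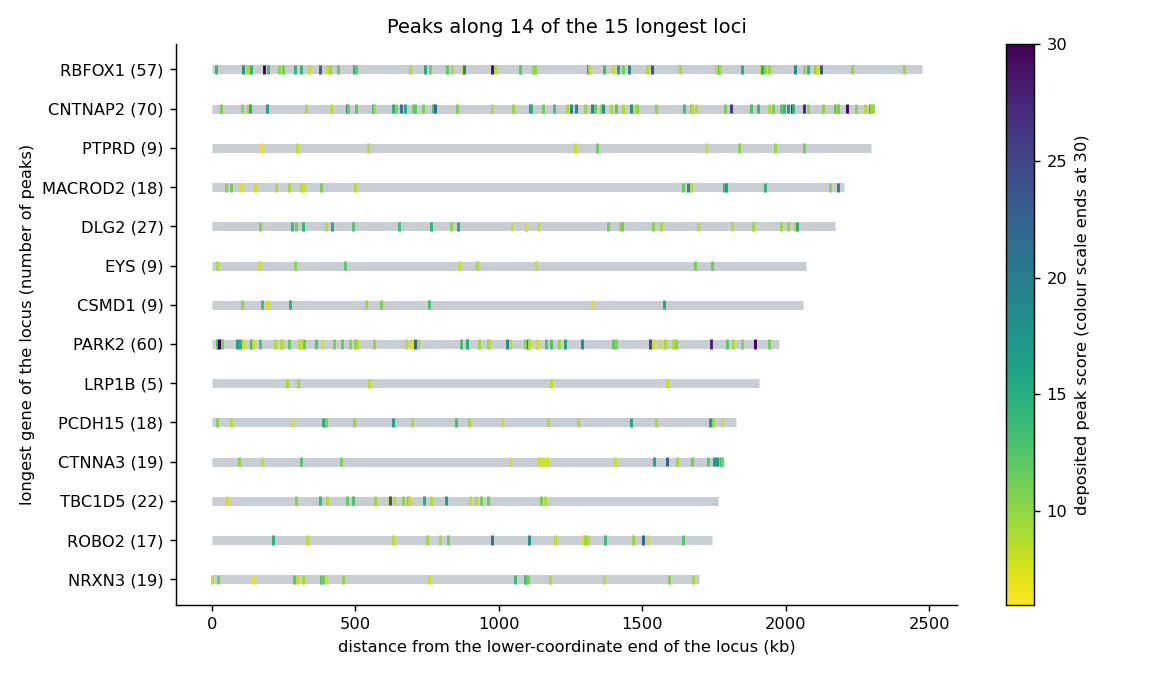
Peaks (ticks, coloured by deposited score) along 14 of the 15 longest loci (grey bars), in kb from the lower-coordinate end, with the number of peaks in brackets. CNTNAP2, PARK2 and RBFOX1 carry 57 to 70 ticks each, and LRP1B carries 5.

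The longest peak-free stretch per locus had a median of 213.7 kb, and it exceeded 500 kb in 28 loci. Its length depends on the length and density of the locus, and it was not compared with stretches elsewhere. MACROD2 had a stretch of 1140 kb, FGF14 of 874.2 kb, PTPRD of 721.9 kb, FHIT of 695.4 kb and SMYD3 of 692.4 kb. Peaks that were present lay about as close together as elsewhere at short range: 13.6% (12.7 to 14.6) had another within 5 kb, beside 13.8% (13.4 to 14.3) in other loci. The share over 100 kb from the nearest other peak was 7.27% (6.56 to 8.03) in long loci and 2.90% (2.69 to 3.12) in other loci, with 5.43% (5.12 to 5.75) in no locus between them. The median distance to the nearest peak was 18.5 kb in long loci and 15.3 kb in other loci.

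Each locus was also set against 1 Mb on each side, leaving out other long loci. This comparison was chosen after seeing the data. A locus and its flanks resembled each other, with a Spearman rank correlation of 0.741 and Pearson's r of 0.757 over 418 loci, given as a description since loci and flanks share the same pull-down libraries and the peak list. Still, 270 loci were below their flanks and 148 above, with the interval of the ratio excluding 1 in 48 and 6. FHIT, a nucleotide hydrolase spanning the common fragile site FRA3B, had the smallest p: 9 peaks (5.99 per Mb) beside 26.7 per Mb in its flanks, a ratio of 0.224 (0.0948 to 0.476, exact binomial test, Benjamini-Hochberg adjusted over 418 loci p = 0.00488). It was the only locus under 0.05 after adjustment. The intervals and p-values of this comparison count each peak as independent. Counts per long locus varied 6.43 times as much as counting error gives, so the intervals can be too narrow and the p-values too small. PARD3B, a cell polarity protein, had 5.58 per Mb beside 22.5 (exact binomial test, adjusted p = 0.0525). Among the 22 loci of the fragile-site list, 20 were below their flanks, with a median density of 10.3 per Mb and a flank median of 16.0. Among the densest, SORCS2 stood at 63.6 beside 39.0, PTPRN2 at 62.0 beside 42.5 and SLIT3 at 47.9 beside 29.5.

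**Figure D3:**
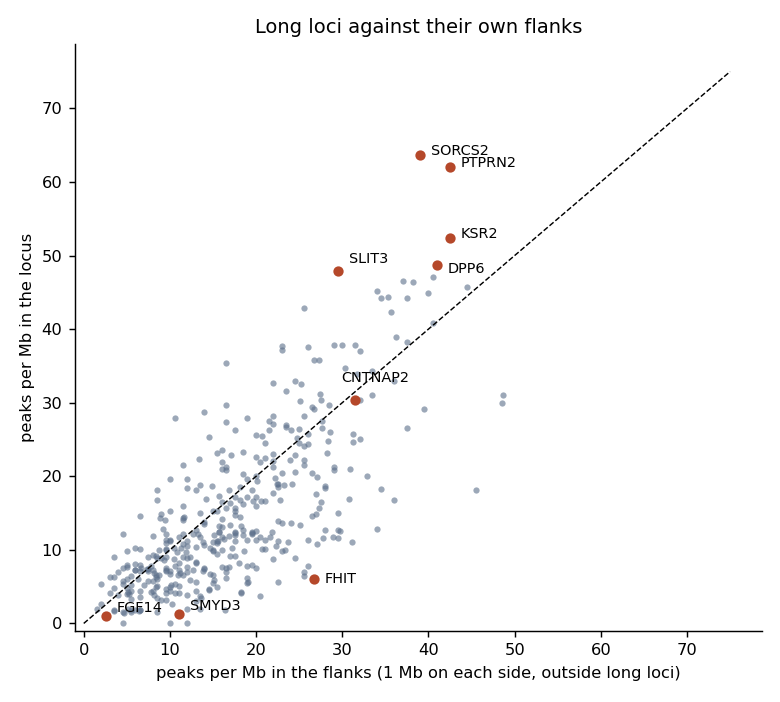
Peaks per Mb in each of 418 long loci against the density of its flanks (1 Mb on each side, outside long loci), with the line of equality. Of the points 270 lie below the line and 148 above, with FHIT at 5.99 against 26.7.

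Density also went with expression and position on the chromosome (the plot of grouped densities). Loci whose longest gene was listed at 0 FPKM in the control (FPKM, fragments scaled to transcript length and library size) held 11.8 peaks per Mb, those up to 0.1 held 12.6, those from 0.1 to 1 held 14.0, those from 1 to 5 held 16.6 and those over 5 held 17.7. Over 1 FPKM against 0.1 or less, the ratio was 1.41 (1.33 to 1.51, exact binomial p = 4.4e-27), and the expressed loci were denser on 15 of 20 autosomes. Over single loci the Spearman rank correlation of density with control FPKM was 0.261. The flanks moved likewise, from a median of 13.9 per Mb for genes at 0 to 20 for genes over 5 FPKM. What part the surroundings have in it was not tested. In some loci the longest matched gene was a short pseudogene at 0 FPKM, such as 2223 bases in a locus of 1309931. The 40 loci with no matched protein-coding gene held 10.5 peaks per Mb. Their part in the order by expression was not tested either. Single loci departed from the order: PTPRN2 was listed at 0.0811 FPKM and DPP6 at 0, both among the densest, and SMYD3 at 13.5 FPKM held 1 peak. Loci under 5 Mb from a chromosome end held 22.9 peaks per Mb and those over 50 Mb away held 13.5 (ratio 1.70, 1.53 to 1.88). Those at 20 to 50 Mb held 12.8, and over single loci the rank correlation of density with this distance was -0.12. The upper 10% of scores made up 18.7% (15.3 to 22.4) of members near the ends and 4.38% (3.39 to 5.55) of those over 50 Mb away. PTPRN2 alone held 65 of the 487 members near the ends. Loci over 1.5 Mb long had 0.823 (0.746 to 0.906) of the density of loci of 500 to 750 kb. Loci of 1 to 1.5 Mb held 11.9 per Mb, below the 13.1 of those over 1.5 Mb. The rank correlation of density with locus length was -0.13. Loci with 2 or more protein-coding genes had 1.18 times (1.11 to 1.26) the density of loci with 1. The intervals of these ratios and the p-value count each peak as independent. Counts per locus varied 6.43 times as much as counting error gives, so the intervals are too narrow and the p-value too small.

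**Figure D4:**
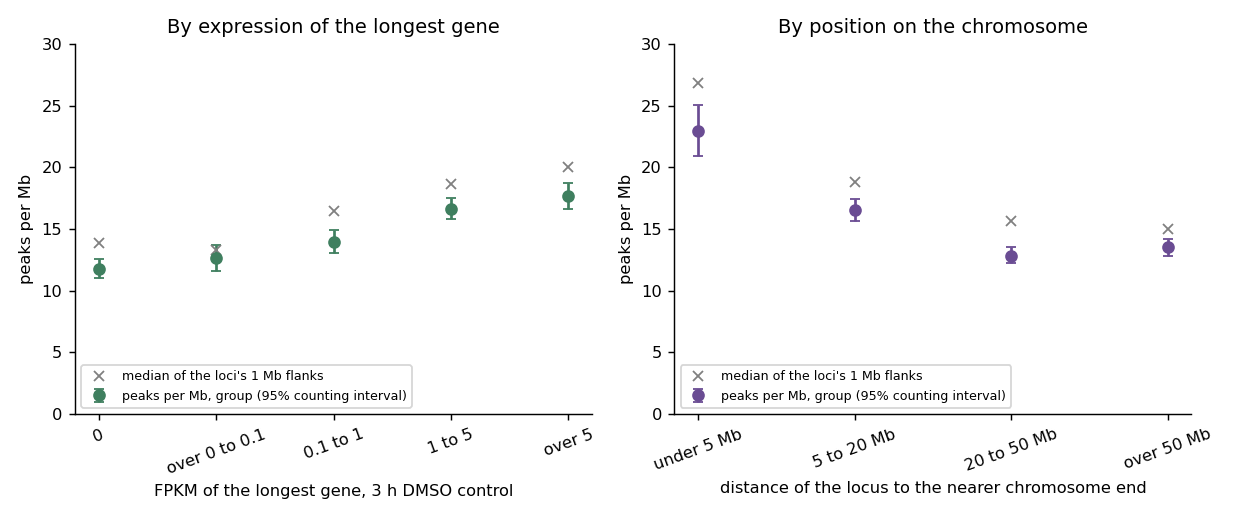
Peaks per Mb in long loci (circles, 95% exact Poisson intervals) grouped by control FPKM of the longest gene (left) and by distance to the nearer chromosome end (right), with the median density of the 1 Mb flanks (crosses). Density runs from 11.8 to 17.7 with expression. It is 22.9 near the ends, 12.8 at 20 to 50 Mb and 13.5 over 50 Mb from them, and the crosses mostly move with it.

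Within the loci, peaks were not gathered at the ends. The outer 5 kb at either end held 59 peaks and the interior, over 50 kb from an end, held 4238, a density ratio of 0.970 (0.737 to 1.25, exact binomial p = 0.897). In loci of 100 to 500 kb the same ratio was 0.849 (0.780 to 0.923). For 261 genes of at least 200 kb with a strand in RefSeq, the first 2 kb held 12 peaks (ratio to the interior 1.48, 0.763 to 2.59) and the last 2 kb held 6 (0.740, 0.271 to 1.61). The first 1 kb held 8 of them (30.7 per Mb, 13.2 to 60.4) and the next 1 kb held 4. The last 1 kb held 0 (0 to 14.1 per Mb) and the 1 kb before it held 6. From 2 to 50 kb the start side held 196 and the end side 194. A peak lay in the first 2 kb of 12 of 261 genes (4.598%). Along the gene, cut into 10 equal stretches, the density ranged from 13.8 to 17.5 per Mb. Few members were near any gene start: 0.921% (0.673 to 1.23) lay within 1 kb of a RefSeq start beside 2.35% (2.16 to 2.55) in other loci, and the median distances were 75.8 and 26.4 kb. Starts were themselves sparser in long loci, which held 1680 of 33558 autosomal promoter windows on 11.9% of the autosomal bases. The shares and distances were not set against this, so no preference of the peaks is read from them. Starts were lacking for chromosome 8, whose 192 peaks in long loci and 884 in other loci stay in the totals of these shares.

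The gene lists used for the loci differed in density. Loci of adhesion and guidance genes (47 loci) held 12.4 peaks per Mb (11.5 to 13.3), fragile-site genes (22) 14.0, signalling genes (27) 15.3, channels and receptors (27) 15.8, cytoskeleton and trafficking genes (17) 17.9 and transcription factors and cofactors (20) 18.3 (16.4 to 20.4). These pool the peaks of a list. The medians over single loci were 10.7, 10.3, 12.4, 7.45, 15.2 and 13.6 per Mb for adhesion, fragile-site, signalling, channel, transcription and cytoskeleton genes, beside flank medians of 11.8, 16, 20, 15.5, 17.7 and 15.1. Channel loci thus had the lowest median although their pooled density was above that of adhesion loci, and 17 of 27 were below their flanks. The range among the single loci of a list, for adhesion genes 0 to 47.9, was wider than the range among lists.

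The cell line was checked on its markers first. Of the HEK 293T markers, VIM stood at 258.6 FPKM in the 3 h control, NEFM at 39.1, KRT8 at 35.6, KRT18 at 17.6 and LHX1 at 4.89, while PAX2 was low at 0.896. The blood marker PTPRC was at 0.00705 and the liver marker ALB at 0.0869. Of the 419 longest genes 186 exceeded 1 FPKM in the control and 101 were listed at 0. These counts concern the longest matched gene only, which can be a short pseudogene, and other genes of a locus can be expressed where it is not. All values below are 1 pooled FPKM per condition in the authors' deposited tables, with no spread between libraries, and a call is a q-value under 0.05 there. In bulk RNA, fewer cells expressing a gene and less RNA per cell cannot be told apart.

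At 3 h almost nothing in the long loci was called. Of 444 tested genes, 3 were called in the authors' deposited table, all higher, or 0.676%, beside 0.115% of all 14751 tested genes (higher 0.108%, lower 0.00678%). They were NAV3, a microtubule-binding protein (0.0334 in control and 1.19 with PDP, q = 0.0434), DLG2 (0.106 and 0.833, q = 0.0434) and EHMT1, a histone methyltransferase in the CACNA1B locus (30.3 and 1137, q = 0.0434). NAV3 and DLG2 rose from near 0. EHMT1 stood at 28.7 at 24 h and 27.6 at 72 h, near its control, and NAV3 at 0.124 and 0.102, where it was not tested, while DLG2 was called higher at both later times.

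At 24 h, 18 genes of long loci were called higher and 12 lower of 461 tested in the authors' deposited table. That is 6.51%, beside 17.5% of all genes tested (higher 9.21%, lower 8.29%). Among the longest genes 11 rose and 2 fell of 224, and the median log2 change of those expressed was 0.16 beside -0.03 for all genes. Among tested genes of like control FPKM it was 0.47 beside 1.05 for all genes up to 1 FPKM, 0.29 beside 0.35 from 1 to 5, 0.09 beside 0.02 from 5 to 20 and 0.08 beside -0.22 over 20, so the longest genes were not above all genes in every range. For the 461 tested genes of long loci, the called share was below that of all genes tested in each range of control FPKM. It was 5.95% beside 15.4% up to 1 FPKM, 5.49% beside 19.1% from 1 to 5 FPKM, 4.58% beside 14.99% from 5 to 20, and 12.2% beside 19.4% over 20. Up to 1 FPKM, being tested depended on the PDP value too, as given for 72 h below, so that range leans to increases. The largest called increases among longest genes were in DLG2 (0.110 to 1.01 FPKM), MEF2C-AS1, an antisense RNA (0.153 to 1.398, q = 0.00394), CXXC4, a Wnt pathway inhibitor (0.729 to 2.15, q = 0.00446), JAZF1, a transcriptional cofactor (3.78 to 9.99, q = 0.0439), MMP16, a membrane metalloproteinase (1.41 to 2.97) and KIAA1217 (1.02 to 2.14) in the authors' deposited table. STAG1, a cohesin subunit, fell from 23.1 to 13.1 FPKM (log2 change -0.82, q = 0.00492) at 24 h and stood at 22.2 at 72 h beside 21.5 in control. The other called decrease, SPOCK3, a secreted proteoglycan, was under 1 FPKM in both conditions (0.971 and 0.311, named after its value was seen). Without strand in the labels, reads of MEF2C-AS1 and an overlapping gene cannot be told apart.

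At 72 h, 79 genes of long loci were called higher and 32 lower of 451 in the authors' deposited table (24.6%, beside 31.8% of all genes). By control FPKM the shares were 23.8% beside 21.7% up to 1 FPKM, 26.5% beside 31.2% from 1 to 5, 24.6% beside 34.6% from 5 to 20 and 22.1% beside 33.7% over 20. Of the longest genes 55 rose and 16 fell of 222, or 32.0%, and of those up to 1 FPKM 46.2% were called. Up to 1 FPKM in control, whether a gene was tested depended on its PDP value too. CADM2 was not tested at 3 h, with 0.311 FPKM under PDP, and was tested at 72 h, with 1.33. Shares and medians in that range therefore lean to increases, for longest and for all genes. All genes were called higher in 19% and lower in 12.8%, and the longest genes in 24.8% and 7.21%. The median log2 change of the expressed longest genes was 0.35, beside 0.11 for all genes. Among tested genes of like control FPKM it was 0.99 beside 1.32 up to 1 FPKM, 0.32 beside 0.28 from 1 to 5, 0.30 beside 0.07 from 5 to 20 and 0.22 beside -0.03 over 20. Over all expressed longest genes it stood at 0.40, 0.34 and 0.35 for the sparsest, middle and densest of 3 sets of about equal number of loci by peak density. In the same order 36.8%, 34.7% and 26.7% of the tested longest genes were called, with 7.02%, 12% and 3.33% called lower. The differences between these sets were not tested.

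RUNX1, a transcription factor of blood cells with 46 peaks in its locus, was at 1.07 FPKM in the 3 h control, 1.29 after 3 h, 1.45 after 24 h and 7.01 after 72 h of PDP. RUNX1 spanned 261502 bases of that locus of 1216867, and the peaks inside the gene itself were not counted. Its 72 h control value is 1.03, a log2 change of 2.76 (q = 0.000393 in the authors' deposited table), and it was not called at 24 h. PRKCE, a protein kinase C with 10 peaks in its locus, rose from 2.71 to 13.2 FPKM (q = 0.000393). The channel subunit CACNA2D3 and the active-zone protein ERC2, with 31 and 29 peaks in their loci, rose from 1.49 to 6.49 and from 1.61 to 6.96. The cell adhesion gene CADM2 (0.130 to 1.33), the GTPase-activating protein ARHGAP24 (0.593 to 3.49) and the actin and phosphatase regulator PHACTR1 (0.459 to 2.61) rose from under 1 FPKM. DLG2 reached 1.603 from 0.103. These values were each from the authors' deposited 72 h table.

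Of the 16 called decreases among the longest genes at 72 h, the 6 largest with at least 1 FPKM in either condition are given first. ST6GALNAC3, a sialyltransferase with 14 peaks in its locus, fell from 6.65 to 0.869 FPKM (log2 change -2.94, q = 0.000393 in the authors' deposited table). CHSY3, a chondroitin synthase, fell from 1.505 to 0.591, and SLIT3, with 31 peaks in its locus, fell from 1.90 to 0.599. RPS6KA2 fell from 4.02 to 1.70, SUMF1, which activates sulfatases, from 5.79 to 2.52, and the adaptor SHB from 17.3 to 7.59. SMYD3, whose locus held 1 peak, fell from 13.1 to 8.37 (q = 0.0294). Genes whose loci held many peaks and genes whose loci held few were thus found on both sides.

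By list at 72 h, signalling genes had 8 higher and 0 lower of 19 tested, with a median log2 change of 0.55 (PRKCE, DLG2, PDE10A 2.27 to 4.88 and PTPRM 4.39 to 11.9 FPKM). Adhesion genes had 4 higher and 4 lower of 19, among them the ephrin receptor EPHA6 (4.67 to 11.6), LRP1B (0.683 to 1.44), NRXN3 (4.94 to 2.49) and SLIT3. Transcription genes had 6 higher and 1 lower of 19, with RUNX1, the deacetylase HDAC9 (0.825 to 2.57), LPP (4.65 to 12.2) and GLIS3 (1.38 to 3.16) among the increases. Fragile-site genes had 3 higher and 0 lower of 16: DLG2, LRP1B and RORA, a nuclear receptor (3.48 to 6.97). Channels had 2 higher of 10, CACNA2D3 and the glutamate receptor subunit GRID1 (3.11 to 4.67), and the list of cytoskeleton and trafficking genes had 1 lower of 13, SPOCK1 (4.03 to 2.26), which encodes a secreted proteoglycan and not a cytoskeletal protein. All are counts of calls in the authors' deposited table, and 31.8% of all tested genes were called at that time.

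**Figure D5:**
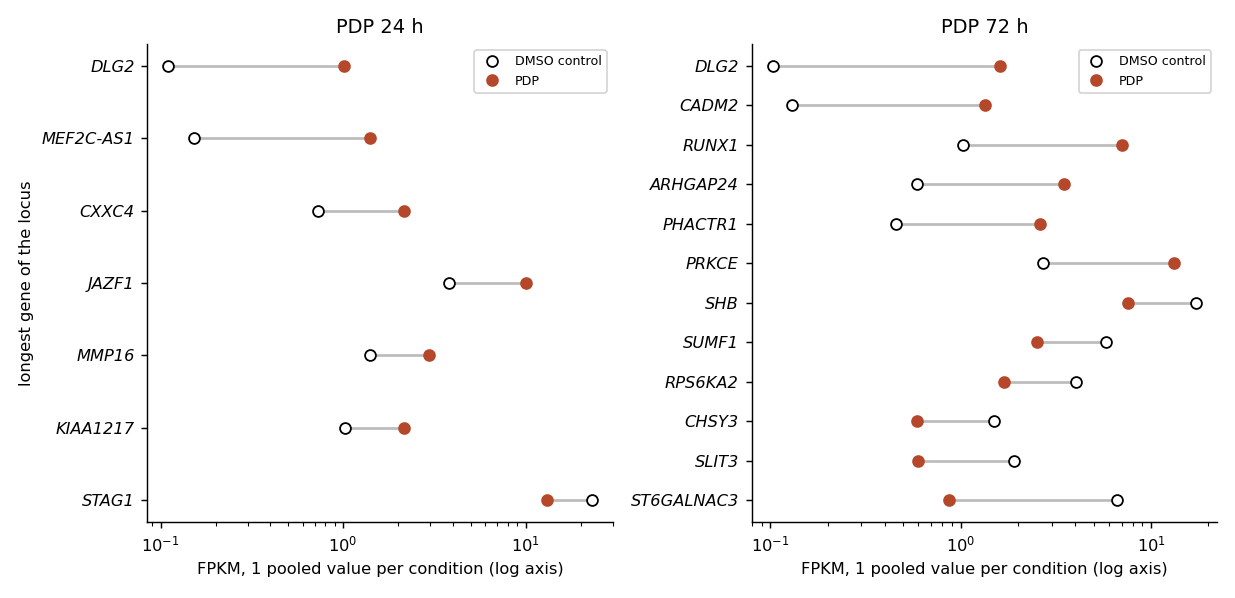
FPKM of the longest genes with the largest called changes at 24 h (left) and 72 h (right), 1 pooled value per condition on a log axis, DMSO control as open circles and PDP as filled ones. At 24 h the only decrease shown is STAG1, and at 72 h RUNX1 moves from 1.03 to 7.01 and ST6GALNAC3 from 6.65 to 0.869.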

How the data were processed

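The pull-down of annealed DNA and its input, with 2 libraries each, gave 1 merged peak list, in which the authors deposited a score per peak. RNA-seq gave 3 tables of PDP against DMSO, in which the authors deposited FPKM per condition, p-values and q-values. Per the submitters' processing notes the build was GRCh38.p7 and the tools were HOMER 4.9.1, Cufflinks 2.2.1, HISAT2 2.0.5, Picard, SAMtools 1.3.1, Bowtie2 2.2.9 and Trim Galore 0.4.4, with settings not given in the sources used here. The values are pooled, so library depth is unknown and no spread between libraries can be given. FPKM sums were 621455 to 699803 per condition. Peaks were assigned by centre to the loci of the 3 h table. For a density the 95% interval is the exact Poisson one, and a ratio of densities was tested by the exact binomial test (Python 3.11.15, SciPy 1.17.1), and the density script was tested on simulated data. Log2 changes were computed from FPKM, because the deposited fold-change column holds text where a value is 0. Medians of expressed genes were over those whose geometric mean of control and PDP FPKM was at least 1. Genes that rose from near 0, such as DLG2, can fall below this limit. For naming genes the limit was instead 1 FPKM in either condition. The longest gene was taken by RefSeq span in 414 loci and by control FPKM in 5. RefSeq matched 1658 of the 2961 gene entries. A motif search over whole peaks was planned but not run, as no genome was used here. Genes were named as the longest of the 15 longest, 6 densest, 6 sparsest and 6 most peak-rich loci, the 6 largest called increases and decreases at each time with at least 1 FPKM, up to 4 called genes per list, and the 5 highest and the median peaks. Of the loci this rule takes, 1 is not reported here. FHIT, PARD3B, the loci of chromosome 18, GSE1, ERC2, SPOCK3 and the genes under promoter peaks were named after their values were seen. The members and lists were chosen with earlier results of these data known. Alternatives to the locus minimum, the peak assignment, score and FPKM limits, scaling and single autosomes are given at the end. The pseudocount alternative was 1.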

Additional observations from a re-analysis of the deposited data

How the results depend on the processing

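The lower peak density in long loci kept its direction and its side of the threshold in all 31 alternatives tried. Without each autosome in turn the ratio to all other bases ran from 0.806 to 0.860, with loci of at least 300 kb it was 0.913, with loci of at least 1000 kb 0.708, and among the upper 10% of peaks by score 0.558. The ratio of locus ends to the interior, not past the threshold, changed side of 1 with a 2 kb window (1.19), among peaks scoring at or above the median (1.06) and in loci with a single protein-coding gene (1.10). The called share of genes at 3 h, 0.676%, was 0% at q under 0.01, 0.428% with loci of at least 300 kb, 1.89% with loci of at least 1000 kb and 1.04% for longest genes that span 0.5 or more of their locus, the last chosen after seeing the data. At 24 h, 6.51% became 3.47% at q under 0.01 and 2.60% with a log2 change of at least 1, and at 72 h, 24.6% became 14.0% under each of these. The median log2 change of expressed genes in long loci at 24 h, 0.11, was -0.010 with a minimum of 5 FPKM, 0.22 with no minimum and 0.28 when scaled to equal FPKM sums, a scaling that moves every gene by 0.17 at 24 h, -0.10 at 72 h and 0.05 at 3 h. At 72 h, 0.22 became 0.12 when scaled, 0.35 for the longest genes, 0.35 for those that span 0.5 or more of their locus and -0.088 with loci of at least 1000 kb. At 3 h, 0.0049 became 0.059 when scaled and 0.054 with loci of at least 1000 kb. The cause of each shift was not tested. No paired analysis was possible because the tables hold 1 pooled value per condition, and leaving out each library was not run for the same reason. Depth limits the loci with 0 or 1 peak, whose upper limits lie between 4.99 and 11.002 peaks per Mb.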
